A study of Arabidopsis thaliana with 48 samples.

Results

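The pseudo-response regulators and the evening genes of the circadian clock were followed in Arabidopsis thaliana leaves over the first minutes of excess light. The set holds 10 genes, listed by name and locus with earlier results of these data known, out of 32833 genes in the tables. Its pseudo-response regulators are PRR9 (AT2G46790), PRR7 (AT5G02810), PRR5 (AT5G24470), PRR3 (AT5G60100) and TOC1 (AT5G61380, also known as PRR1). Its evening genes are GI (AT1G22770), ZTL (AT5G57360), ELF3 (AT2G25930), ELF4 (AT2G40080) and LUX (AT3G46640). All 10 were listed in every table, although PRR3 and ELF4 had 0 reads in some libraries. Of the 10, 7 (PRR9, PRR7, TOC1, GI, ZTL, ELF3 and LUX) were abundant enough to be tested in all 4 tables.

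Poly(A) RNA was sequenced from rosette leaves of WT plants (ecotype Col) and of rbohD knockout plants, all 4 to 5 weeks old and raised in peat pellets in short days of 8 h light and 16 h dark at 50 µmol m-2 s-1. A single leaf, the local leaf, received light of 2000 µmol m-2 s-1 for 0, 2, 4 or 8 min. A distant leaf of the same plants that was not given this excess light, the systemic leaf, was collected with it. Each of the 16 groups (2 genotypes, 2 leaves, 4 times) had 3 replicates, each a pool of leaves from many plants. The 12 libraries of each genotype and leaf form a table of their own. RBOHD encodes the plasma membrane NADPH oxidase that makes the superoxide of the systemic reactive oxygen wave, and the sources describe a single rbohD knockout line. The stated growth conditions were the same for all groups. The labels place all 24 WT libraries in one experiment and all 24 rbohD libraries in another, so that genotype and experiment cannot be told apart in any comparison between them. Values are normalized counts, which are reads per gene divided by a size factor per library. The tables were normalized separately, so no level was tested across tables.

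In the plant clock, genes are expressed in turn over the day. CCA1 and LHY, MYB-like repressors, peak around dawn. The pseudo-response regulators follow in sequence from PRR9 in the morning to TOC1 in the evening, and members of this family repress CCA1 and LHY. CCA1 and LHY in turn repress evening genes by binding the evening element of their promoters. ELF3, ELF4 and LUX form the evening complex, a night-time repressor of transcription, while GI and the blue-light receptor ZTL control the stability of the TOC1 and PRR5 proteins.

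Depth lay between 13412657 and 28675623 reads per library. RBOHD transcript stood at 1096 to 2153 normalized counts in the 24 WT libraries and at 337 to 697 in the 24 libraries labelled rbohD, so reads from the locus remained in the knockout. Leaf markers were abundant in both genotypes, with RBCS1A, a Rubisco small subunit, at 191937 counts or more in each library, whereas the floral gene AP3 did not pass 7.34 counts. The root gene PYK10 ranged from 7.34 to 303 counts and was called higher at 2 min in rbohD leaves, with log2 changes of 1.90 in local and 1.59 in systemic leaves. Of 8 markers of mesophyll, epidermis, guard cells and phloem, 7 were lower at 2 min in WT local leaves (log2 changes of -0.63 to -0.08 over the 8), 4 in WT systemic (-0.35 to 0.14), 6 in rbohD local (-0.85 to 0.24) and 4 in rbohD systemic leaves (-0.46 to 0.43). In WT systemic, rbohD local and rbohD systemic leaves 1 marker each was called higher, and in WT local leaves 0. Of all genes, 66.9%, 60.3%, 69.3% and 63.3% were called at 2 min in these 4 tables, in the order WT local, WT systemic, rbohD local and rbohD systemic. The part of the markers in the changes below was not tested, and in whole leaves fewer cells of a type and less RNA per cell cannot be told apart.

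The promoters of 5 members are shown because these genes had the largest changes from 0 min among the 7 members tested in every table. The bases are the 250 before the annotated start of each gene in the RefSeq annotation of TAIR10.1, all on the plus strand, with motif matches in capitals. Motifs were searched on both strands of the 250 bases before and the 50 after the start.
PRR9: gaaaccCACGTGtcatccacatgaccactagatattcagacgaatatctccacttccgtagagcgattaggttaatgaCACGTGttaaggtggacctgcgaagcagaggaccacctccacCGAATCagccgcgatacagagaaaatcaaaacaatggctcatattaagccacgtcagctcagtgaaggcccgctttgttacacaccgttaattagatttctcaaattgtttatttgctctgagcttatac
TOC1: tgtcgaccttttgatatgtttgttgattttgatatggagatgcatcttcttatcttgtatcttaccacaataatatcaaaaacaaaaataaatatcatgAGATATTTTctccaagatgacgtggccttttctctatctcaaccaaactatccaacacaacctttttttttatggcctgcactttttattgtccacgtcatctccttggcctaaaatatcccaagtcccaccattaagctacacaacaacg
GI: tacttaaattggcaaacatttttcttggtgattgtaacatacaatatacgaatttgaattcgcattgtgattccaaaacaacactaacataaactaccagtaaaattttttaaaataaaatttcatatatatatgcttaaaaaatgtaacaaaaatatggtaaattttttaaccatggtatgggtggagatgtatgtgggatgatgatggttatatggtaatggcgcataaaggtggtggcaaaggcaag
ELF3: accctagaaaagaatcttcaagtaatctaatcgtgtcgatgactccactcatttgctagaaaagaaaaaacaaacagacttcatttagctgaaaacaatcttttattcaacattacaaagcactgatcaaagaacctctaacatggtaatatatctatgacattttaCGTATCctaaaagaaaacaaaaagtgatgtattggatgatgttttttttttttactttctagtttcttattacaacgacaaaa
LUX: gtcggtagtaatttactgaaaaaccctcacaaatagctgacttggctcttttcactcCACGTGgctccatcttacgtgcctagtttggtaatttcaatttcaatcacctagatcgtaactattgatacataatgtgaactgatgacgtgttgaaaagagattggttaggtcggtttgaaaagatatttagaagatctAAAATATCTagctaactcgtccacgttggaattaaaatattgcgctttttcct

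These stretches lie at chr2:19232357-19232606 for PRR9, chr5:24674713-24674962 for TOC1, chr1:8061501-8061750 for GI, chr2:11058694-11058943 for ELF3 and chr3:17182792-17183041 for LUX. The evening element (AAAATATCT) began in TOC1 151 bases before the start, on the reverse strand, and in LUX 53 bases before it. It also lay in PRR5 and, 27 bases after the start, in PRR9, so that 4 of the 10 members held it, against 2.817% of 27443 promoters of this length. The G-box (CACGTG), a site of light-regulated bHLH and bZIP factors, was in PRR9 at 2 places, PRR7 and LUX and in 7.678% of all promoters. The binding site of LUX in the form GATACG was in ELF3, as capitals on the reverse strand, and in ELF4, against 5.542% of all promoters, and the form GATTCG was in PRR9, against 9.576%. The CCA1-binding site AAAAATCT was in PRR5 only, against 7.882%, and the heat shock element in PRR7, against 0.481%. GI, PRR3 and ZTL had none of these letters in the window. A match is a description of the sequence and not an occupied site.

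At 0 min the members differed widely in level, given here as normalized counts per kilobase of exon. In WT local leaves PRR9 led with 720.27 ± 40.82 (SD, n = 3), followed by PRR7 at 671.10 ± 18.61, ZTL at 558.23 ± 15.48 and GI at 318.28 ± 7.20. PRR9 and PRR7 lay within the sum of their SDs, whereas ZTL and GI stood apart from their neighbours. TOC1 (37.22 ± 3.61), LUX (30.92 ± 1.25) and ELF3 (18.72 ± 3.22) formed a middle group, and PRR3 was lowest (1.24 ± 0.29). ELF4 (3.86 ± 4.49) and PRR5 (3.28 ± 1.44), just above it, did not differ beyond their spread.

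WT systemic leaves had the same first 4 and last 3 genes, and LUX (35.87 ± 5.35) and TOC1 (28.13 ± 4.52) did not differ beyond their spread, nor did PRR9 and PRR7. In rbohD local leaves the order began with PRR7 (863.66 ± 4.04), PRR9 (404.81 ± 7.13), ZTL (352.78 ± 8.89) and GI (116.21 ± 3.72). There ELF3 (36.47 ± 5.72) and TOC1 (35.23 ± 1.59) shared the middle without differing beyond their spread, and LUX (11.12 ± 1.93) and ELF4 (11.26 ± 4.16) lay below them. PRR7 also led in rbohD systemic leaves (739.18 ± 22.41). LUX stood above ELF3 in both WT tables and below it in both rbohD tables, each time beyond the sum of their SDs.

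At 2 min of excess light, 5 of the 7 members changed in WT leaves and all 7 in rbohD leaves. In WT local leaves 3 of the 7 rose and 2 fell, where 66.9% of all tested genes were called, and in WT systemic leaves 3 rose and 2 fell, where 60.3% were called. In rbohD leaves 4 rose and 3 fell, locally (69.3% of all genes) as well as systemically (63.3%). The local count includes TOC1, whose call was lost in several alternative runs given below. With each library left out in turn that count was 6 to 7. Over the 7 the median log2 change was 0.08, 0.05, 0.45 and 0.39 in these tables, while that of all genes was at most 0.03. In all 4 tables PRR9 was higher and PRR7 lower, whereas GI fell in WT and rose in rbohD, and ELF3 and TOC1 rose in WT and fell in rbohD. A call is an adjusted p under 0.05 in limma, with adjustment over all genes tested.

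At 4 min, when fewer genes of the whole genome were called, 3 members were higher and 1 lower in WT local leaves (23.8% of all genes), and 3 were higher and 2 lower in WT systemic leaves (27.9%). For rbohD the counts were 4 higher and 1 lower in local (48%) and 1 higher and 3 lower in systemic leaves (25.8%). At 8 min every called member was above its 0 min level. These were 6 of the 7 in WT local (45.4% of all genes) and 4 in WT systemic leaves (44.5%). For rbohD they were 5 in local (35.2%) and 1, PRR9, in systemic leaves (14.3%). The count in rbohD local leaves was 3 without replicate 3 at 8 min. That in rbohD systemic leaves was 2 in edgeR, after rescaling, and without replicate 1 or 2 at 0 min or replicate 2 at 8 min.

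PRR9, the morning member of the family and a repressor of CCA1 and LHY, rose in every table and at every time. In WT local leaves its normalized counts were 1545, 1452 and 1627 at 0 min, 3090, 2855 and 2979 at 2 min, 1938, 1708 and 1862 at 4 min and then 2931, 2764 and 2856 at 8 min. Systemic leaves of WT had 1426, 1419 and 1592 at 0 min, 2541, 2517 and 2474 at 2 min, 1855, 1907 and 1776 at 4 min and then 2058, 1925 and 2043 at 8 min. All libraries of the later times lay above all 0 min libraries in both leaves. The log2 change in WT local leaves was 0.95 ± 0.0499 (SE, adjusted p = 1.6e-13) at 2 min and 0.89 ± 0.0499 (SE, adjusted p = 1.5e-12) at 8 min, with a low between them at 4 min, where it was 0.25. The systemic change in WT was 0.77 ± 0.0482 (SE, adjusted p = 6.7e-12) at 2 min, then 0.32 and 0.44 at the later times.

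In rbohD leaves PRR9 also rose at each time. The local counts were 862, 854 and 883 at 0 min, 1730, 1925 and 1745 at 2 min, 1082, 1079 and 1211 at 4 min and then 1583, 1507 and 1493 at 8 min. In systemic leaves they were 718, 745 and 805 at 0 min, 1323, 1380 and 1416 at 2 min, 870, 909 and 838 at 4 min and then 870, 889 and 845 at 8 min. Again no later library overlapped the 0 min libraries. The 2 min rise was 1.05 ± 0.0477 (SE, adjusted p = 5.7e-18) in local and 0.86 ± 0.0461 (SE, adjusted p = 1.2e-19) in systemic leaves, a 2.07-fold and a 1.82-fold difference on the log2(normalized count + 1) scale. At 8 min the local leaf stood at 0.82 ± 0.0477 (SE, adjusted p = 1.6e-14), and the systemic leaf at 0.20.

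PRR7, which follows PRR9 in the morning and also represses CCA1 and LHY, fell at 2 min in each table. Its counts in WT local leaves were 2234, 2115 and 2160 at 0 min, 1916, 1772 and 1682 at 2 min, 2755, 2712 and 2679 at 4 min and then 2573, 2586 and 2403 at 8 min. Systemic leaves of WT had 2135, 2037 and 2105 at 0 min, 1443, 1428 and 1479 at 2 min, 2552, 2702 and 2675 at 4 min and then 2017, 2037 and 1968 at 8 min. In both leaves the 2 min libraries lay below and the 4 min libraries above all 0 min libraries. The change at 2 min was -0.28 in WT local leaves (adjusted p = 1.4e-05), a call lost when libraries were rescaled to a single total (-0.11, adjusted p = 0.062), and -0.53 ± 0.0408 (SE, adjusted p = 2.2e-10) in WT systemic leaves. At 4 min it had turned to 0.32 and 0.34.

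PRR7 in rbohD local leaves stood at 2804, 2794 and 2778 at 0 min, 2036, 1969 and 2025 at 2 min, 2645, 2683 and 2904 at 4 min and then 3097, 3112 and 3123 at 8 min. Systemic leaves of rbohD had 2307, 2421 and 2441 at 0 min, 1474, 1428 and 1523 at 2 min, 2178, 2149 and 2089 at 4 min and then 2171, 2311 and 2248 at 8 min. Here the fall at 2 min was followed at 4 min by a return towards the 0 min level rather than by a rise above it. The change at 2 min was -0.47 in rbohD local leaves (adjusted p = 1.1e-12) and -0.70 ± 0.0364 (SE, adjusted p = 5.4e-20) in systemic leaves, and at 4 min it was -0.03 in local leaves, with overlap and no call, and -0.16 in systemic leaves.

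TOC1, the last of the pseudo-response regulators to peak and the founding member of the family, rose in WT leaves. Its counts in WT local leaves were 97.0, 116 and 100 at 0 min, 185, 163 and 116 at 2 min, 156, 138 and 149 at 4 min and then 133, 143 and 134 at 8 min. Systemic leaves of WT had 93.6, 70.7 and 72.6 at 0 min, 110, 114 and 145 at 2 min, 116, 130 and 132 at 4 min and then 133, 159 and 176 at 8 min. The rise was larger than the spread, although the local libraries at 2 min ranged widely and the lowest of them was level with the highest 0 min library, at 116 counts each. The log2 change in local leaves was 0.54 ± 0.131 (SE, adjusted p = 0.00099) at 2 min, 0.50 ± 0.131 (SE, adjusted p = 0.0075) at 4 min and 0.39 at 8 min, the last without a call when replicate 1 or 3 at 0 min or replicate 2 at 8 min was left out (0.34 to 0.36). Systemic leaves had 0.63 ± 0.134 (SE, adjusted p = 0.00033), 0.67 ± 0.134 (SE, adjusted p = 0.00055) and 0.98 ± 0.134 (SE, adjusted p = 3.1e-06) at the 3 times, a 1.97-fold difference at 8 min.

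TOC1 in rbohD local leaves stood at 103, 94.0 and 100 at 0 min, 81.4, 68.3 and 95.0 at 2 min, 114, 123 and 149 at 4 min and then 119, 136 and 124 at 8 min. Systemic leaves of rbohD had 97.5, 102 and 128 at 0 min, 54.5, 78.2 and 67.4 at 2 min, 97.6, 113 and 96.3 at 4 min and then 102, 94.1 and 97.6 at 8 min. TOC1 was thus low at 2 min in rbohD leaves, clearly so in systemic leaves, where no 2 min library reached the 0 min range. The change there was -0.71 ± 0.134 (SE, adjusted p = 1.6e-05). In local leaves it was -0.29 with overlapping libraries, and that call (adjusted p = 0.044) was lost in edgeR (adjusted p = 0.071), in DESeq2 (0.14), without the filter on low values (0.068), after rescaling (0.12) and with only the 2 groups in the fit (0.074). Leaving out replicate 1 or 3 at 0 min, or replicate 1 or 2 at 2 min, also ended that call (-0.29 to -0.17). At 4 and 8 min TOC1 was 0.37 and 0.35 above its start in rbohD local leaves. The 4 min call was lost without replicate 2 at 0 min (0.33) or replicate 3 at 4 min (0.26), and the 8 min call in DESeq2 (adjusted p = 0.093), without the filter (0.053) and without replicate 2 or 3 at 0 or 8 min (0.29 to 0.36). In rbohD systemic leaves TOC1 lay -0.09 and -0.15 from its start, where neither was called.

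PRR5 and PRR3, which in the clock act in the afternoon and evening, were close to the detection limit. PRR3 had 0 to 9.17 normalized counts in the 48 libraries and was tested in no table. PRR5 had 2.14 to 17.8 counts and passed the filter in the 2 rbohD tables only, through its 0 and 8 min libraries. In rbohD systemic leaves PRR5 stood at 9.38, 17.8 and 12.1 at 0 min, 3.09, 2.14 and 2.45 at 2 min, 8.05, 8.44 and 3.11 at 4 min and then 11.5, 14.7 and 12.3 at 8 min, so that its 2 min libraries were the lowest. The fitted log2 difference at 2 min was -1.95 there and -0.97 in rbohD local leaves. Since PRR5 passed the filter because some groups were high, these values are a description with no test and were not counted above.

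**Figure D1:**
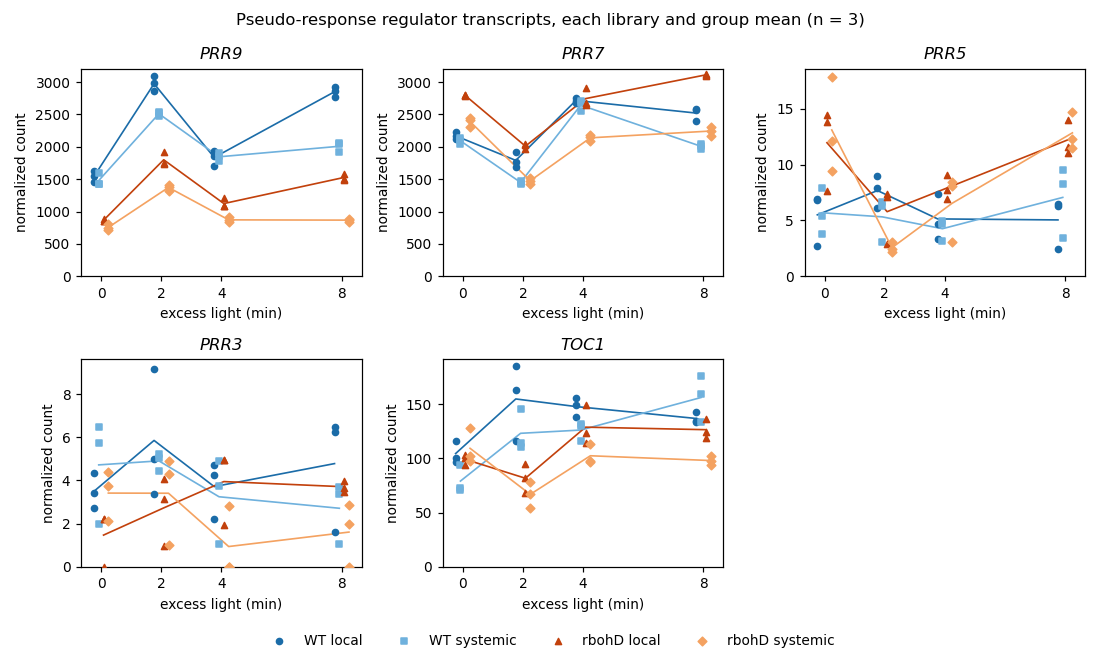
Normalized counts (vertical axis, from 0) of the 5 pseudo-response regulators against minutes of excess light (horizontal axis). Points are single libraries, lines join the means of 3 replicates, and colours and symbols mark genotype and leaf. PRR9 has its highest mean at 2 min in all 4 tables, PRR7 has its low there, TOC1 at 2 min is above its start in WT and below it in rbohD, and PRR3 does not pass 9.17 counts.

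GI, a large nuclear and cytosolic protein that stabilizes ZTL and promotes flowering, moved in opposite directions in the 2 genotypes. Its counts in WT local leaves were 1341, 1364 and 1403 at 0 min, 726, 736 and 739 at 2 min, 1036, 1010 and 1016 at 4 min and then 1617, 1638 and 1635 at 8 min. Systemic leaves of WT had 1172, 1315 and 1295 at 0 min, 746, 714 and 689 at 2 min, 840, 823 and 908 at 4 min and then 1471, 1450 and 1384 at 8 min. GI fell at 2 min, recovered in part by 4 min and exceeded the start at 8 min, with no overlap between the 0 min libraries and any later group. The log2 change in WT local leaves was -0.90 ± 0.0411 (SE, adjusted p = 1.4e-14) at 2 min, a 1.87-fold lower level, then -0.42 and 0.25. The systemic change in WT was -0.81 ± 0.0544 (SE, adjusted p = 1.9e-11) at 2 min and -0.56 ± 0.0544 (SE, adjusted p = 5e-08) at 4 min, then 0.19, which was not called without replicate 1 at 0 min (0.14).

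GI in rbohD local leaves stood at 514, 504 and 482 at 0 min, 1705, 1648 and 1690 at 2 min, 633, 616 and 620 at 4 min and then 641, 767 and 726 at 8 min. Systemic leaves of rbohD had 458, 465 and 438 at 0 min, 1275, 1266 and 1326 at 2 min, 367, 373 and 386 at 4 min and then 478, 492 and 474 at 8 min. GI thus surged at 2 min and was back near its start 2 min later. The 2 min change was 1.75 ± 0.0531 (SE, adjusted p = 4.1e-22) in local leaves, a 3.36-fold difference, and 1.50 ± 0.0502 (SE, adjusted p = 1.5e-26) in systemic leaves, a 2.84-fold difference. At 4 min GI remained 0.32 above its start in local leaves and lay -0.27 from it in systemic leaves. At 8 min it was 0.50 ± 0.0531 (SE, adjusted p = 7.1e-09) higher in local leaves, and 0.09 in systemic leaves, which was not called.

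ZTL, an F-box protein with a blue-light-sensing LOV domain that targets TOC1 and PRR5 for degradation, stayed in WT between 1312 and 1547 counts in all 24 libraries. The only called change from 0 min in WT was 0.13 at 8 min in local leaves (adjusted p = 0.012), lost without replicate 1 at 8 min or replicate 2 at 0 min (0.11 each). The change at 2 min in WT local leaves was 0.08 and not called, but it was called in edgeR (0.10, adjusted p = 0.034) and after rescaling (0.26, adjusted p = 1.2e-05), and rescaling also gave calls in WT systemic leaves at 2 min (0.16) and 8 min (0.22). In rbohD local leaves ZTL stood at 854, 885 and 844 at 0 min, 1248, 1068 and 1231 at 2 min, 945, 956 and 960 at 4 min and then 861, 880 and 900 at 8 min. The 2 min libraries lay above all others of this table. The change at 2 min was 0.45 in rbohD local leaves (adjusted p = 2.8e-09) and 0.39 in rbohD systemic leaves (adjusted p = 2.3e-09), and by 8 min it was 0.03 and -0.03.

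ELF3, the scaffold of the evening complex and a gate of light input to the clock, moved opposite to GI in both genotypes at 2 min. Its counts in WT local leaves were 46.8, 61.7 and 45.9 at 0 min, 130, 117 and 118 at 2 min, 63.4, 58.4 and 57.1 at 4 min and then 93.2, 104 and 67.1 at 8 min. Systemic leaves of WT had 69.9, 46.2 and 65.9 at 0 min, 156, 151 and 181 at 2 min, 43.2, 65.9 and 51.6 at 4 min and then 80.0, 86.7 and 121 at 8 min. ELF3 rose at 2 min, overlapped the 0 min libraries at 4 min and was higher again at 8 min. The log2 change in WT local leaves was 1.24 ± 0.155 (SE, adjusted p = 2.9e-07) at 2 min and 0.76 ± 0.155 (SE, adjusted p = 0.00037) at 8 min. The systemic change in WT was 1.43 ± 0.178 (SE, adjusted p = 4.2e-07), a 2.69-fold difference, at 2 min and 0.65 ± 0.178 (SE, adjusted p = 0.0046) at 8 min. The systemic rise at 8 min was 0.47 and not called without the third replicate of that time.

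ELF3 in rbohD local leaves stood at 92.8, 89.6 and 118 at 0 min, 30.5, 38.9 and 36.5 at 2 min, 51.4, 61.2 and 77.6 at 4 min and then 103, 107 and 87.7 at 8 min. Systemic leaves of rbohD had 105, 122 and 122 at 0 min, 39.1, 46.1 and 40.4 at 2 min, 69.4, 82.6 and 68.3 at 4 min and then 117, 112 and 116 at 8 min. Both leaves had their lowest counts at 2 min and were again at the 0 min level by 8 min. The change was -1.48 ± 0.159 (SE, adjusted p = 2.2e-09) at 2 min and -0.66 ± 0.159 (SE, adjusted p = 0.001) at 4 min in local leaves, and -1.45 ± 0.132 (SE, adjusted p = 1.3e-12) and -0.66 ± 0.132 (SE, adjusted p = 0.00015) in systemic leaves. At 8 min it was -0.01 in both. ELF3 shares bases with an antisense RNA that had no reads and with 24 bases of ALPHA-VPE, which averaged 3.8 counts against 83.7 for ELF3. The use of strand in counting was not given in the sources used here.

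LUX, the MYB-like DNA-binding subunit of the evening complex, rose in rbohD leaves. Its counts in rbohD local leaves were 35.4, 50.3 and 44.9 at 0 min, 69.2, 81.9 and 74.8 at 2 min, 51.4, 51.3 and 57.8 at 4 min and then 61.8, 52.2 and 76.7 at 8 min. In rbohD systemic leaves they were 37.5, 39.8 and 30.7 at 0 min, 114, 98.6 and 95.6 at 2 min, 44.3, 42.2 and 48.7 at 4 min and then 45.8, 44.1 and 61.4 at 8 min. The 2 min libraries were above all 0 min libraries in both leaves, further so in systemic leaves. The change at 2 min was 0.79 ± 0.165 (SE, adjusted p = 0.00012) in local and 1.49 ± 0.166 (SE, adjusted p = 2.7e-10) in systemic leaves, a 2.81-fold difference in the latter. At 8 min local leaves had a change of 0.53 ± 0.165 (SE, adjusted p = 0.012), which lost its call without local replicate 1 at 0 min or replicate 3 at 8 min (0.39 each), and systemic leaves had 0.47, which was not called.

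In WT local leaves LUX stood at 127, 118 and 119 at 0 min, 125, 81.3 and 99.0 at 2 min, 110, 93.7 and 107 at 4 min and then 134, 122 and 114 at 8 min. Systemic leaves of WT had 161, 141 and 119 at 0 min, 118, 128 and 128 at 2 min, 105, 107 and 107 at 4 min and then 129, 118 and 115 at 8 min. At 2 min the libraries overlapped those of 0 min in both leaves, with no call in the main fit (-0.27 and -0.16). The local change at 2 min was called with the replicate block (-0.27, adjusted p = 0.048) and without replicate 1 at 2 min (-0.43). All 4 min libraries lay below all 0 min libraries in both leaves, without a call in local leaves. The only called change of LUX from 0 min in the main fit in WT was -0.38 at 4 min in systemic leaves (adjusted p = 0.012). It became -0.28 and lost its call without replicate 1 at 0 min. LUX shares 1507 bases with AT3G46650 on the opposite strand, which averaged 0.6 counts against 88.3 for LUX.

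ELF4, the small partner of ELF3 and LUX, had 0 to 14.3 normalized counts and passed the filter only in rbohD systemic leaves, through its 0 and 8 min libraries. There it stood at 13.1, 11.5 and 12.1 at 0 min, 1.03, 1.07 and 1.23 at 2 min, 2.01, 2.81 and 5.18 at 4 min and then 14.3, 6.86 and 10.1 at 8 min. Its 2 min libraries held between 1.03 and 1.23 normalized counts and were the lowest of the table. The fitted log2 difference was -2.65 at 2 min and -1.68 at 4 min, a description with no test for the same reason as for PRR5. In WT leaves ELF4 did not pass 5.44 counts, and a change was not detectable at this depth.

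**Figure D2:**
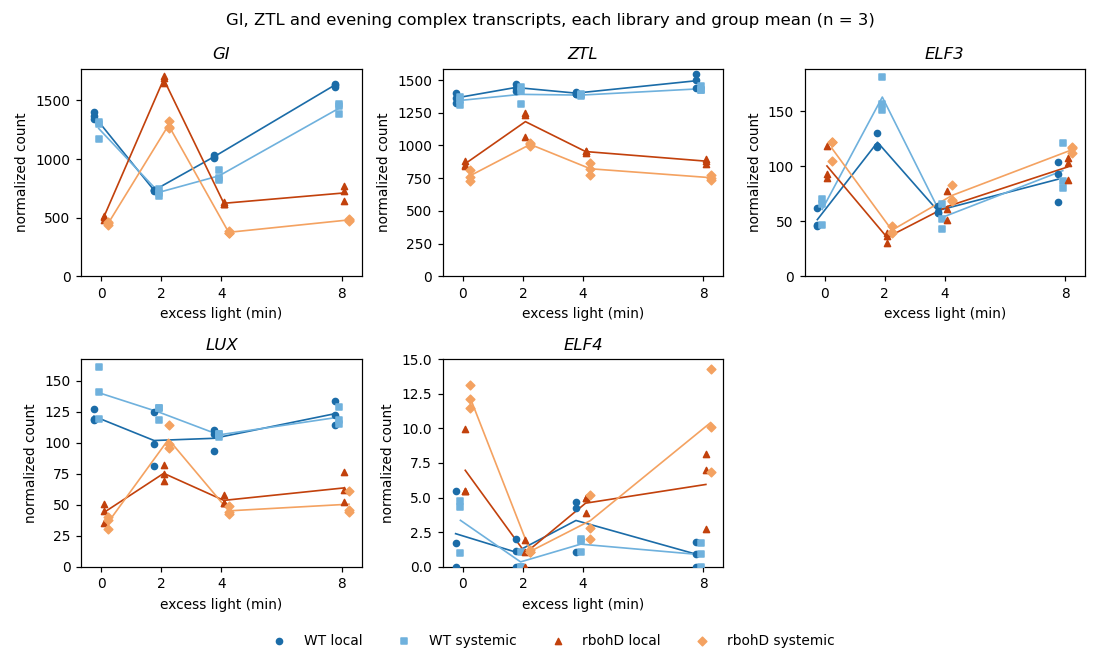
Normalized counts (vertical axis, from 0) of GI, ZTL and the 3 evening complex genes against minutes of excess light (horizontal axis). Points are single libraries, lines join the means of 3 replicates, and colours and symbols mark genotype and leaf. At 2 min GI falls in WT and rises in rbohD while ELF3 rises in WT and falls in rbohD, and ZTL in WT stays between 1312 and 1547 counts.

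**Figure D3:**
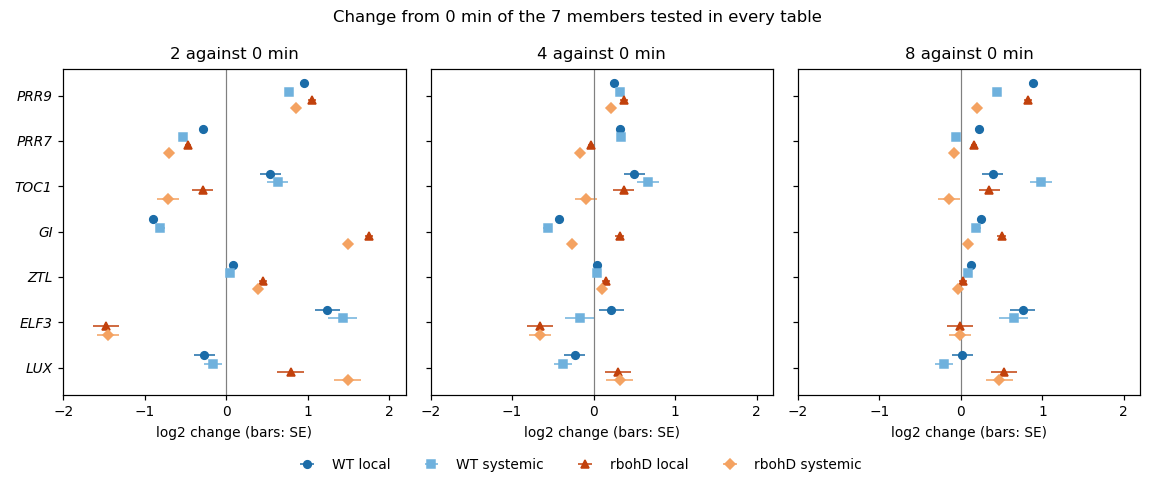
Log2 changes from 0 min of the 7 members tested in every table, at 2, 4 and 8 min (left to right), with bars for the SE of the limma fit. Each symbol is a genotype and leaf, and the vertical line marks no change. The values range most widely at 2 min, from -1.48 for ELF3 in rbohD local leaves to 1.75 for GI in the same leaves, and at 8 min most symbols lie at or above the line.

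Whether the knockout altered the response was asked from the difference between the change in WT and the change in rbohD, which cancels the separate scaling of the tables. It does not separate genotype from experiment, since WT and rbohD plants were each sampled in an experiment of their own. At 2 min 6 of the 7 members differed in each leaf, 3 with a higher and 3 with a lower change in WT, where 54.4% of all genes were called in local and 55.8% in systemic leaves. The 6 were the same genes in both leaves, with the same sign. The share of all genes called in both leaves with the same sign was not computed, so this overlap is a description. GI had the largest negative difference, -2.65 ± 0.067 (SE, adjusted p = 3.7e-27) in local and -2.32 ± 0.0708 (SE, adjusted p = 1.4e-25) in systemic leaves. ELF3 had the largest positive one, 2.72 ± 0.229 (SE, adjusted p = 1.9e-12) and 2.88 ± 0.222 (SE, adjusted p = 1e-13). TOC1 differed by 0.83 ± 0.187 (SE, adjusted p = 0.00032) and 1.34 ± 0.195 (SE, adjusted p = 3.2e-07), and LUX by -1.06 ± 0.211 (SE, adjusted p = 6.4e-05) and -1.65 ± 0.19 (SE, adjusted p = 2.5e-09). ZTL (-0.37 and -0.34) and PRR7 (0.20 and 0.17) differed by less.

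PRR9 was the exception at 2 min. Its difference was -0.10 ± 0.0719 (SE) in local and -0.10 ± 0.0673 in systemic leaves, both with an adjusted p of 0.23. At 4 min 3 members differed in local leaves (33.4% of all genes), a count that became 6 after rescaling each library to a single total, and 4 in systemic leaves (18.5%). PRR7 was then 0.35 ± 0.0585 (SE, adjusted p = 1e-05) and 0.50 ± 0.0538 (SE, adjusted p = 5.5e-09) higher in WT, and GI -0.74 ± 0.067 (SE, adjusted p = 6e-11) and -0.28 ± 0.0708 (SE, adjusted p = 0.0034). ELF3 was called in local leaves (0.88 ± 0.229 (SE, adjusted p = 0.0025)), with 0.48 in systemic leaves, and TOC1 (0.76) and LUX (-0.70) were called in systemic leaves.

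At 8 min 2 members differed in local leaves (18.5% of all genes), GI (-0.25 ± 0.067 (SE, adjusted p = 0.0063)) and ELF3 (0.77 ± 0.229 (SE, adjusted p = 0.016)). The ELF3 call was lost without WT local replicate 2 at 8 min (0.63) or rbohD local replicate 3 at 0 min (0.64), which leaves a count of 1. In systemic leaves 4 differed (35.7% of all genes). TOC1 was 1.12 ± 0.195 (SE, adjusted p = 1.6e-05) higher in WT, ELF3 0.66 ± 0.222 (SE, adjusted p = 0.017), PRR9 0.24 ± 0.0673 (SE, adjusted p = 0.0042), and LUX was -0.67 ± 0.19 (SE, adjusted p = 0.0049). The ELF3 call in systemic leaves was lost without WT systemic replicate 2 at 0 min (0.48) or replicate 3 at 8 min (0.49).

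**Figure D4:**
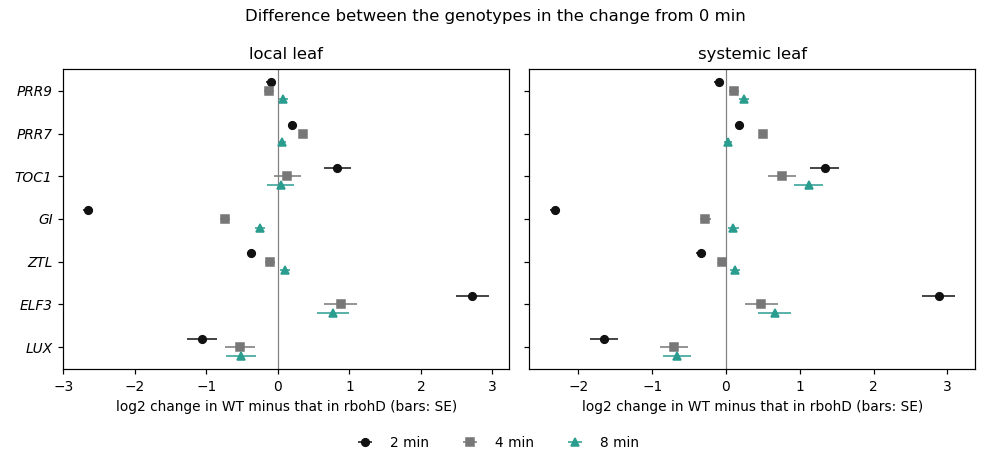
Difference between the genotypes in the log2 change from 0 min (WT minus rbohD, horizontal axis) for the 7 members, in local (left) and systemic (right) leaves, with SE bars and a symbol for each time. At 2 min GI and LUX lie left of the line and ELF3 and TOC1 right of it in both leaves, from -2.65 for GI to 2.88 for ELF3, and PRR9 lies at -0.10 in both.

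Successive times were also compared. From 2 to 4 min 2 members rose and 2 fell in WT local leaves (65.2% of all genes called) and in WT systemic leaves (59.7%), while 3 rose and 4 fell in rbohD local (54.1%) and rbohD systemic leaves (54.9%). Each of the members called in this interval moved against its 2 min change. Both comparisons use the same 2 min libraries with opposite sign, which favours opposite directions, so this is a description. GI changed by 0.48 in WT local and by -1.43 and -1.78 in rbohD local and systemic leaves, and ELF3 by -1.02 and -1.60 in WT and 0.81 and 0.79 in rbohD. TOC1 in WT was not called, at -0.04 and 0.04.

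From 4 to 8 min 3 members rose in WT local leaves (38.9% of all genes called), and 3 rose and 1 fell in the systemic leaves of WT (40%). The rbohD counts were 4 that rose in local (28.1%) and 2 in systemic leaves (23.4%). ELF3 rose in all 4 tables, by 0.54, 0.83, 0.65 and 0.64 in that order, the first without a call when WT local replicate 2 at 8 min was left out (0.40). GI rose by 0.68, 0.74, 0.19 and 0.36, the third without a call after rescaling (0.11) or without replicate 2 at 8 min (0.13). PRR7 rose by 0.18 in rbohD local leaves. PRR9 rose in WT local (0.64) and rbohD local leaves (0.44). Its rise in WT systemic leaves was 0.12 (adjusted p = 0.049), a call lost in edgeR (0.071), DESeq2 (0.060) and without the filter (0.063). PRR7 was the member that fell, by 0.40 in WT systemic leaves.

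The changes of PRR9, PRR7, TOC1, GI and LUX differed between the local and the systemic leaf at some time in WT or rbohD, and those of ZTL and ELF3 were not called. In WT the change of 1 member differed between leaves at 2 min, where 12% of all genes were called, that of none at 4 min (6.35%), and that of 3 at 8 min (13.8%). The 2 min case was PRR7, which fell less in the local leaf (0.25 ± 0.0602 (SE, adjusted p = 0.0059)), and with the pool of plants as a block PRR9 joined it (0.18, adjusted p = 0.040). At 4 min the count was 0 in limma, edgeR and DESeq2, and 0 members had an unadjusted p under 0.05. At 8 min PRR9 (0.44 ± 0.0713 (SE, adjusted p = 2e-05)) and PRR7 (0.28) were higher in local leaves, PRR7 without a call after rescaling (0.17). TOC1 was lower by -0.59 ± 0.197 (SE, adjusted p = 0.043), a call lost with the pool as a block (adjusted p = 0.062), in DESeq2 (0.055), without the filter (0.065) and in 9 of 24 fits that left out 1 library (-0.71 to -0.50 over the 24).

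In rbohD leaves 4 members differed between leaves at 2 min (25.8% of all genes), 1 at 4 min (16.6%) and 3 at 8 min (20.9%). GI was higher in the local leaf at each time, by 0.24 ± 0.0713 (SE, adjusted p = 0.0089), 0.59 ± 0.0713 (SE, adjusted p = 3.2e-08) and 0.42 ± 0.0713 (SE, adjusted p = 1.2e-05). PRR9 was higher by 0.19 at 2 min and 0.62 ± 0.0677 (SE, adjusted p = 8.9e-10) at 8 min, and PRR7 by 0.22 and 0.25. LUX was lower in the local leaf at 2 min (-0.70 ± 0.233 (SE, adjusted p = 0.021)). The PRR9 and LUX calls at 2 min were lost in DESeq2 (adjusted p = 0.073 and 0.057), which leaves 2 members, as does leaving out local replicate 2 or systemic replicate 3 at 0 min or systemic replicate 1 at 2 min. At 4 min the count was 2 without local replicate 1 and 3 without systemic replicate 1 at 0 min.

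CCA1 and LHY, which members of the pseudo-response regulator family repress, also changed in the same libraries. LHY in WT local leaves had normalized counts of 11147, 10225 and 10289 at 0 min, 24572, 22640 and 23098 at 2 min, 6562, 6902 and 6973 at 4 min and then 13466, 13700 and 13458 at 8 min. In rbohD local leaves it had 577, 603 and 618 at 0 min, 12064, 12412 and 12502 at 2 min, 1432, 1444 and 1530 at 4 min and then 1432, 1287 and 1449 at 8 min. The level at 0 min was low in rbohD and the rise at 2 min steep, 4.36 ± 0.0428 (SE, adjusted p = 2.5e-33) or 20.5-fold, against 1.15 ± 0.0416 (SE, adjusted p = 2.4e-16) or 2.22-fold in WT. Systemic leaves had the same pattern for LHY, 1.08 in WT and 4.35 in rbohD. CCA1 rose by 0.88 and 0.81 in WT local and systemic leaves and by 1.74 and 1.82 in rbohD. The difference between genotypes at 2 min was -3.21 ± 0.0599 (SE, adjusted p = 9.6e-31) for LHY and -0.87 ± 0.0492 (SE, adjusted p = 4.3e-17) for CCA1 in local leaves.

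As CPM, which sets reads against the total of each library, LHY at 0 min was 456 ± 23.7 (SD, n = 3) in WT local and 37.0 ± 1.63 in rbohD local leaves, and CCA1 was 445 ± 11.2 and 188 ± 5.64. These levels come from separate experiments and were not tested. Of the 14 morning genes (CCA1, LHY and relatives of the REVEILLE and LNK families), 12 rose at 2 min in each WT leaf (medians of 0.79 local and 0.65 systemic), where 66.9% and 60.3% of all genes were called in either direction. In rbohD 13 rose locally and 14 systemically (1.36 and 1.32), against 69.3% and 63.3% of all genes called. LNK1 was lower in both WT leaves (-0.16 and -0.21), and RVE7 in WT systemic leaves (-0.24). At 4 min 6 of the 14 were lower and 1 higher in WT local leaves, where 23.8% of all genes were called. In rbohD local leaves 13 were higher, where 48% of all genes were called.

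Further morning genes with large changes at 2 min in rbohD local leaves were RVE1, a link from the clock to auxin synthesis (2.92), ASG4 (2.79), RVE8, an activator of evening genes (2.41), RVE2 (1.74) and LNK2, a coactivator for RVE8 (1.58). RVE2 also rose in WT leaves (1.44 local, 1.45 systemic), as did ASG4 (1.22 and 1.18). LNK3 (1.07), LNK4 (1.02), AT4G01280 (1.15) and AT5G52660 (1.02) rose by less in rbohD local leaves. AT4G01280 shares 681 bases with the more abundant AT4G01290 on the opposite strand, so its value is uncertain. RVE7 changed late, by 1.91 in WT local and 2.07 in rbohD local leaves at 8 min. The methods place sampling in a single hour of the morning and the hour of each library was not given in the sources used here. Time of day, treatment time and any other difference between collections of plants therefore cannot be told apart for genes of the clock.

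**Figure D5:**
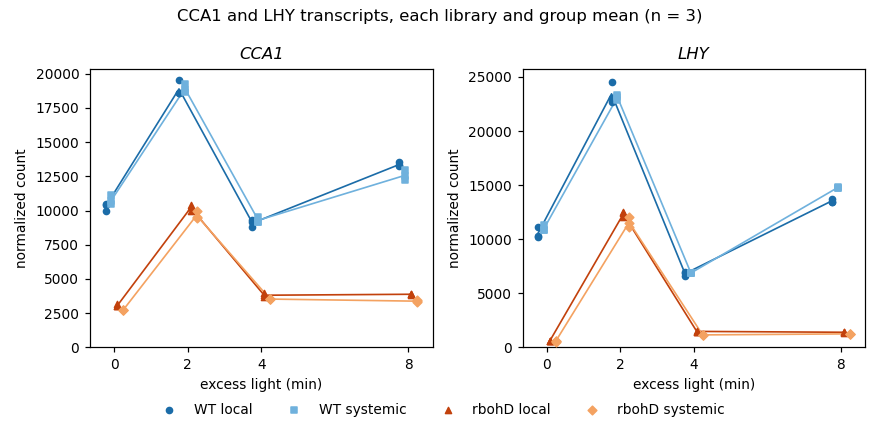
Normalized counts (vertical axes, from 0) of CCA1 and LHY against minutes of excess light (horizontal axis) in single libraries, with lines through the means of 3 replicates and colours for genotype and leaf. Both genes are highest at 2 min in all 4 tables. LHY in rbohD local leaves goes from 577 to 618 counts at 0 min to 12064 to 12502 at 2 min.

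Among genes that act beside the members, 4 of 13 tested regulators and partners rose and 3 fell at 2 min in WT local leaves, and 5 of 12 rose and 4 fell in rbohD local leaves, with medians of -0.02 and 0.03. With 66.9% and 69.3% of all genes called in these comparisons, the counts say nothing particular about this list. HSP90.1 and HSP90.2 encode cytosolic chaperones, and HSP90 with GI matures ZTL. HSP90.1 rose at 2 min in rbohD, by 4.03 in local and 4.18 in systemic leaves, and at 8 min reached 6.56 in rbohD local and 3.25 in WT local leaves. HSP90.2 fell at 2 min in WT (-1.37 local, -1.34 systemic) and rose in rbohD (1.09 and 1.88), and its reads may be shared with near-identical HSP90 copies. CHE, a TCP factor that represses CCA1, fell in rbohD (-1.79 and -1.23), as did PRMT5, an arginine methyltransferase needed for splicing of clock transcripts (-1.66 and -1.63), and FIO1 (-1.14 and -1.15). COR27 had 1.05 to 30.6 counts in WT and no more than 8.40 in rbohD, and passed the filter in the WT tables only, through its 2 min libraries. Its 2 min means were 23.8 in local and 22.5 in systemic leaves of WT, against 5.71 and 2.97 at 0 min, which is a description. COR27 is among the 13 genes tested in WT local leaves, and its part in that count is likewise a description and no test.

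Of the 8 paralogues of members 3 were tested. At 2 min 1 rose and 2 fell in rbohD local leaves (69.3% of all genes called). In rbohD systemic leaves 1 rose and 1 fell (63.3%), in WT systemic leaves 2 rose (60.3%) and in WT local leaves 0 were called (66.9%). Of 9 tested output genes 5 rose and 3 fell at 2 min in WT local leaves and 6 rose and 3 fell in rbohD local leaves, against the same 66.9% and 69.3% of all genes. PIF4, a growth-promoting bHLH factor that the evening complex represses, fell in all 4 tables at 2 min (-1.26, -1.15, -1.07 and -1.13 in WT local, WT systemic, rbohD local and rbohD systemic leaves). GRP7, an RNA-binding protein of a slave oscillator, fell in rbohD (-1.24 and -1.31). CDF2, a DOF repressor of flowering that is degraded by GI and its partner FKF1, rose by 1.21 in rbohD local leaves. AT1G69570 rose by 1.96 in WT systemic leaves, from a mean of 8.29 to 34.9 counts, and was low in rbohD local leaves, with 2.75 to 6.56 counts at 0 min and 7.35 to 12.2 at 2 min. In rbohD local leaves it passed the filter only through libraries after 0 min, where it was higher. Its part in the count of 6 output genes that rose there is therefore a description and no test.

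Likeness of course was measured over the 48 libraries as the Pearson correlation of log2(normalized count + 1) centred on each table, among 14605 genes tested in all tables with a mean of at least 50 counts. It is a description, since libraries of a table share their scaling and groups, and no p is given. For GI the closest were CYP72A15 (0.96), ATCAD4 (0.95) and ABCC2 (0.95). ELF4 (AT3G07670, EMB3120 and AT2G35790, each 0.77) and PRR5 (AT5G23390 at 0.74, AT5G23575 at 0.72 and AT4G39170 at 0.71) had looser matches, at the low counts given above. Genes chosen after their values were seen are SEX1, DPE2 and PHS2, enzymes of starch breakdown, at 0.96, 0.96 and 0.95 to PRR7, and BBX31 and BBX32, B-box factors of light signalling, at 0.96 and 0.93 to PRR9.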

How the data were processed

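Groups, times and replicate numbers were taken from the sample labels for all 48 libraries. Per the labels and methods, stranded poly(A) libraries were read as 75 nt single ends. FastQC 0.11.7, STAR 2.4.0.1, DESeq2 1.20.0 and TAIR10 are named in the submitters' processing notes. The gene counter, its treatment of multimapped reads and its use of strand were not given in the sources used here. The authors deposited a signal per gene, the read count divided by a DESeq2 size factor, with the 4 tables normalized separately. Whole reads were recovered in every library (100% of values whole within 0.01), and depth was read from them.

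The 10 genes, the lists and the tests were chosen with earlier results of these data known. A gene was tested where 3 or more libraries of the table reached 10 normalized counts (both tables for a difference between changes). Values were taken as log2(normalized count + 1), which understates changes of low genes, and fitted in limma 3.58.1 under R 4.3.3 with the variance trended on the mean. Tests were two-sided, with Benjamini-Hochberg adjustment over all genes tested and a threshold of 0.05. All 4 times of a table, or all 8 groups of a pair of tables, shared a fit. Counts of members cover the 7 tested in all 4 tables. Full statistics were given for called member changes from 0 min of at least 0.5 (not for PRR5 and ELF4, which passed the filter only through groups where they were high) and values for listed genes with called changes of at least 1. The 3 most similar genes were named for the 3 members with the largest changes.

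Alternatives were a pseudocount of 5, no filter, rescaling of libraries to a single total, edgeR 4.0.16 and DESeq2 1.42.0 on recovered reads, the replicate or plant pool as a block, only the 2 groups compared, and each library left out in turn. P-values measure the spread between pools of plants. Local and systemic leaves of a number come from the same pools according to the methods, and their deviations from the group means correlated at -0.01 to 0.14. Promoters were read from RefSeq TAIR10.1, matched by locus for all 10 genes.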

Additional observations from a re-analysis of the deposited data

Results flagged for a closer look

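Differences between groups in the change from 0 min, tested as a difference of changes in limma, passed the threshold for all 7 members tested in every table. This pools all comparisons of genotypes and leaves. The share of all genes called in a single such comparison ran from 6.35% to 55.8%. The share called in any of them was not computed, so the pooled count says nothing particular about the members. Between WT and rbohD, genotype and experiment cannot be told apart. All values are log2 differences, with n = 3 pools a group. Groups of 3 libraries were not tested for outliers, and no cause of any difference was tested.

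Between genotypes (WT minus rbohD) GI differed by -2.65, -0.74 and -0.25 at 2, 4 and 8 min in local leaves, and by -2.32 and -0.28 at 2 and 4 min in systemic leaves. ELF3 had the opposite sign, with 2.72, 0.88 and 0.77 in local leaves at the 3 times and 2.88 and 0.66 at 2 and 8 min in systemic leaves. TOC1 differed by 0.83 at 2 min in local leaves and by 1.34, 0.76 and 1.12 at the 3 times in systemic leaves. LUX differed by -1.06 at 2 min in local leaves and by -1.65, -0.70 and -0.67 in systemic leaves. PRR7 differed by 0.20 and 0.35 at 2 and 4 min in local leaves and by 0.17 and 0.50 in systemic leaves. ZTL differed by -0.37 and -0.34 at 2 min, in local and systemic leaves. PRR9 differed by 0.24 at 8 min in systemic leaves.

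Between leaves (local minus systemic) PRR9 differed by 0.44 at 8 min in WT and by 0.19 and 0.62 at 2 and 8 min in rbohD. PRR7 differed by 0.25 and 0.28 at 2 and 8 min in WT and by 0.22 and 0.25 in rbohD. TOC1 differed by -0.59 at 8 min in WT. GI differed by 0.24, 0.59 and 0.42 at the 3 times in rbohD, and LUX by -0.70 at 2 min in rbohD.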

How the results depend on the processing

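No member change or difference of changes that passed the threshold, here or in any alternative run, changed sign. Of the 32 counts of called members, rescaling each library to a single total moved 4 by more than 1.5 times. These were WT local minus systemic at 2 min (2 in place of 1), WT minus rbohD in local leaves at 4 min (6 in place of 3), rbohD systemic at 8 min (2 in place of 1) and rbohD local minus systemic at 4 min (2 in place of 1). edgeR gave 2 in place of 1 for rbohD systemic at 8 min, and DESeq2 gave 2 in place of 4 for rbohD local minus systemic at 2 min. Rescaling moved all genes by up to 0.17 on the log2 scale in changes from 0 min (WT local at 2 min), and by -0.19 from 2 to 4 min in WT local leaves. The share of higher calls in WT local leaves at 2 min went from 50.0% to 66.2%. It moved further elsewhere, as at 8 min in WT systemic (49.1% to 74.2%) and rbohD systemic leaves (52.5% to 76.6%). For WT local minus systemic at 8 min it went from 40.5% to 15.4%. With each library left out in turn, counts ranged from 1 to 3 for WT minus rbohD in local leaves at 8 min, 3 to 5 for rbohD local at 8 min, 1 to 2 for rbohD systemic at 8 min, 2 to 5 for rbohD local minus systemic at 2 min and 1 to 3 at 4 min.

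Deviations of libraries with the same replicate number correlated at -0.08 to 0.14 between times. Leaves from the same pools reached no more than 0.14, so these values cannot decide whether replicate numbers pair times. The replicate block moved no count between times by more than 1.5 times. For the leaves, the plant pool as a block gave 2 in place of 1 for WT at 2 min (PRR9 at 0.18, adjusted p = 0.040) and ended the TOC1 call in WT at 8 min (-0.59, adjusted p = 0.062). Spearman in place of Pearson correlation kept 1 of the 3 genes most like GI and 0 of those most like PRR9. On the given strand only, 1 member (LUX) held the evening element. PRR3, PRR5 and ELF4 were limited by depth.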
